A study of Mus musculus with 8 samples.

Results

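Dietary fat is taken up and repackaged in the enterocyte, and the genes of that route were followed here in the duodenum of mice that lack IκBα in the intestinal epithelium. The genes were chosen by name, as 33 genes of triglyceride absorption and chylomicron assembly, and 31 of them had a probe set with that gene symbol, each with 1 probe set among the 22206 on the array. Acsl3 and Apoc2 had no probe set named for them. Duodenal RNA came from 4 knockouts (KO) and 4 wild-type littermates (WT) and went onto 8 Clariom S arrays. The knockouts carried a floxed Nfkbia gene, which encodes IκBα, and Villin-Cre, which is active in villin-expressing gut epithelium and removes the promoter and the first exons. The tissue was frozen and homogenised whole, and the sample labels call it small intestine. The littermates are labelled WT, with no word on a floxed allele or Cre. No mouse was treated, and all were fed standard pellets. The labels do not say when the mice last ate. Siblings had the same age within a pair, 8 weeks in pairs 1 and 3, 11 weeks in pair 2 and 9 weeks in pair 4. Pair 1 was male and pair 2 female. Pair 3 joined a male knockout with a female wild type, and pair 4 a female knockout with a male wild type.

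Fatty acids and monoacylglycerol reach the enterocyte from the gut lumen after lipases have cut dietary triglyceride. Transport proteins such as Cd36 and Slc27a4 and the intracellular binding proteins Fabp1 and Fabp2 take up and carry the fatty acids, and acyl-CoA synthetases activate them. The monoacylglycerol route (Mogat2, then Dgat1 or Dgat2) and the glycerol phosphate route (Gpat, Agpat and lipin enzymes, then Dgat) rebuild triglyceride. The new fat is held for a time in cytosolic droplets, or is loaded by Mttp onto Apob and leaves the cell as chylomicrons in large COPII vesicles.

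Of the 31 members measured, 4 were lower in knockouts at a limma adjusted p under 0.05 and 0 were higher. These 4 were the fatty acid transporter gene Slc27a4, the phosphatidate phosphatase gene Lpin2, the acyltransferase gene Gpat3 and the acyl-CoA synthetase gene Acsl5. The share of members called lower, 12.9%, stood beside 2.70% of all 22206 probe sets, dim and unnamed ones included. Of all probe sets 3.16% were called higher, and 5.86% in either direction. The members were chosen with earlier results of these data known, so these shares are no independent test of the group. At an unadjusted limma p under 0.05, 12 of 31 members were lower, beside 14.2% of all probe sets, and 3 were higher, beside 13.2%. The same shares of all probe sets apply to the gene lists below. In all 4 pairs 12 of 31 were lower, 38.7%, beside 17.9% of all probe sets, and 4 of 31 were higher, 12.9%, beside 16.5%. The members' median difference was −0.12 (log2, knockout minus wild type), against −0.015 over all probe sets. Differences are given on the log2 scale throughout, and a value after ± is the SD of the 4 within-pair differences.

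The calls changed with the pairs and covariates in the fit. Without pair 1, 2 or 4 limma called 0 members, and without pair 3 it called Slc27a4 alone. At unadjusted limma p under 0.05 the fits without pair 1, 2 or 4 had 11, 11 and 10 members lower. Of all 22206 probe sets 2475, 2277 and 2682 were lower in the same way. Without pair 1, 2 or 4 the deleted gene Nfkbia was not called either. It differed by −2.56, −2.45 and −2.49, with limma adjusted p-values of 0.0545, 0.0582 and 0.0512. Of all probe sets 68, 56 and 96 were then called lower, against 599 in the reported fit. With all 4 pairs kept, adding sex or RNA integrity to the fit left Slc27a4 called, while Lpin2, Gpat3 and Acsl5 had adjusted p-values of 0.0505, 0.0836 and 0.0718 with sex and 0.0513, 0.094 and 0.0824 with RNA integrity. The fit without the block for sibling pairs called 11 members lower and 5 higher, beside 4026 and 3622 of all probe sets. Most differences between pairs were absent from the deposited values. That fit therefore counts degrees of freedom the data do not hold, and its p-values are too small for most probe sets. Centring the arrays on housekeeping genes gave 14 members lower and 0 higher, beside 5275 and 495 of all probe sets. The median difference of all probe sets was then −0.186, so this count is not particular to the members.

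Nfkbia, the deleted gene, fell by 2.65 ± 0.918 (n = 4 pairs, limma adjusted p = 0.0130), with differences of −2.93, −3.26, −1.29 and −3.13 in pairs 1 to 4. Array medians ran from 6.77 to 6.81. Every member exceeded 5.65 on every array, a background level set at the 95th percentile of probe sets for olfactory receptors. In 70% of probe sets the deposited values had 4 pair means within 0.05 of each other, so that a high wild-type value came with a low knockout value in the same pair. The pair means of some members, such as Fabp1, Cd36 and Slc27a2, lay farther apart. Array values of different pairs were set against each other only to say whether groups overlap, to screen for outlying arrays and to give ranges of summed marker levels. Those ranges carry the same mirroring within pairs, so they are not levels to compare between mice of different pairs. Where pair means are so close, groups that do not overlap follow almost directly from 1 direction in all pairs. All 12 members lower in 4 pairs had every knockout array below every wild-type array, as did 17.2% of all probe sets, and the 4 members higher in 4 pairs had the reverse, as did 15.9%. The tissue held strong enterocyte signal, with summed log2 levels of 11 enterocyte markers between 16.42 and 16.60 in wild types and between 16.19 and 16.35 in knockouts. Of these markers 3 were called lower (27.3%) and 0 higher, 63.6% were lower in all 4 pairs, and their median difference was −0.27. Of 10 pan-epithelial markers 0 were called lower and 1 higher, with a median of 0.05. Fewer enterocytes and less RNA per enterocyte cannot be told apart in such bulk tissue, and the part of the enterocyte markers in the members' differences was not tested.

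**Figure D1:**
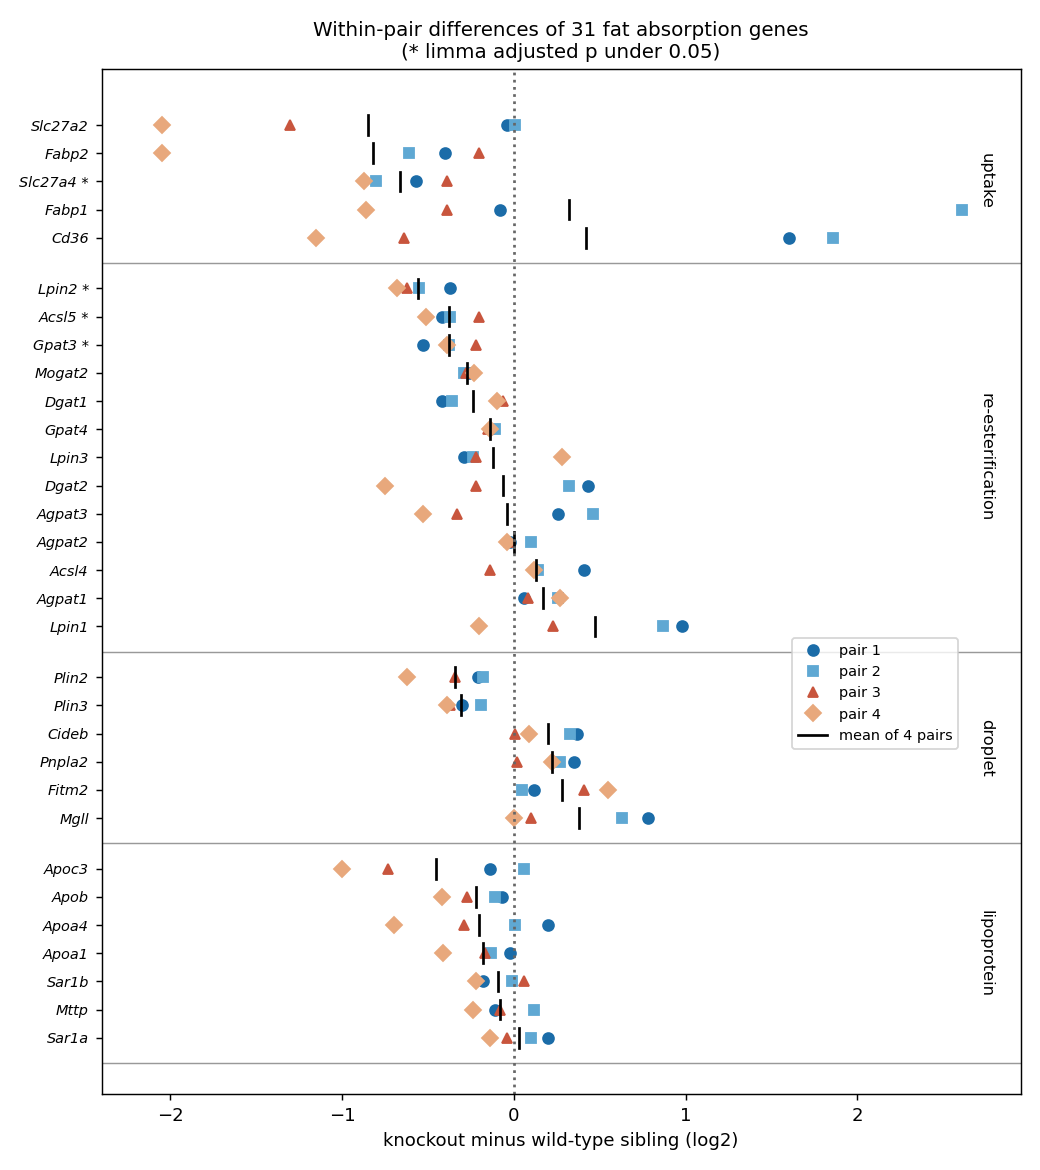
Each row is 1 of the 31 measured genes, each symbol the knockout minus wild-type difference of 1 sibling pair (log2) and each bar the mean of the 4 pairs. Slc27a4, Lpin2, Acsl5 and Gpat3, marked with an asterisk, lie left of 0 in every pair, while Cd36 runs from −1.15 to 1.86.

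The sequences before the start sites of the 4 called genes are shown because these genes fell together. Of the 31 measured members 26 have a window in the RefSeq promoter table of build GRCm38.p6, which runs from 250 bases before a start to 50 bases after it. The windows are chr2:29802384-29802683 for Slc27a4, chr17:71183282-71183581 for Lpin2 (the most upstream of 3 starts), chr5:100845979-100846278 for Gpat3 and chr19:55253119-55253418 for Acsl5, all on the plus strand. Capitals mark matches, on either strand, to a GC box (GGGGCGGGG) or an E-box (CACGTG).

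Slc27a4: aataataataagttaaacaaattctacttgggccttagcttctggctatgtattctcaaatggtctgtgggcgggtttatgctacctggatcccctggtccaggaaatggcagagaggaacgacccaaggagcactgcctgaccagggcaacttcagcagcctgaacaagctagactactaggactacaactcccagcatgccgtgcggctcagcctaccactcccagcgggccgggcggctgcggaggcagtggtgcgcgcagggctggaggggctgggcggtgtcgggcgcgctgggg

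Lpin2: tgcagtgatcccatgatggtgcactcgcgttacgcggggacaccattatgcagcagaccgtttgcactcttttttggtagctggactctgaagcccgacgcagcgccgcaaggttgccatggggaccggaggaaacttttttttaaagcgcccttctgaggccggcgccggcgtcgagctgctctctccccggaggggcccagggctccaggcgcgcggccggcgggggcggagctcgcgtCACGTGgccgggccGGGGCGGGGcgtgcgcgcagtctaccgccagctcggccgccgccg

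Gpat3: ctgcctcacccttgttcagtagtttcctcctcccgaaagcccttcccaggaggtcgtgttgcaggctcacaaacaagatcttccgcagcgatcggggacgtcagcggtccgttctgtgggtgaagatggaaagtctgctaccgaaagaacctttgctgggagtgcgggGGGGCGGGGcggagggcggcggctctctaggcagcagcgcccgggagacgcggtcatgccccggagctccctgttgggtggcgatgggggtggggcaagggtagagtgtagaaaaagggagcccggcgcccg

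Acsl5: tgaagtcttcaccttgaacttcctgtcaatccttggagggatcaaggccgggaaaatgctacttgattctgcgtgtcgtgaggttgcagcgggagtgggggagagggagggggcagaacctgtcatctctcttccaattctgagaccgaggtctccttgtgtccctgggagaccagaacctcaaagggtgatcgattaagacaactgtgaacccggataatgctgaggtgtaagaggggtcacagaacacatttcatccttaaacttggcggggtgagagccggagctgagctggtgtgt

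The share of G and C was 58.7% in Slc27a4, 68.7% in Lpin2 and 64.3% in Gpat3, above the median of 52.7% over the 32851 windows of the table, and 53% in Acsl5, close to it. A GC box lay in the windows of Lpin2 and Gpat3 but not in those of Slc27a4 and Acsl5. Over the 26 members it was in 8 windows (30.8%), against 11.4% of all windows. The E-box of Lpin2 begins 9 bases before the start, and 5 of 26 members held that motif (19.2%, against 7.15%). A 10-base kappa-B element, searched in a single written form, was in 0 of the 26 windows and in 0.411% of all. An HNF4 element written as CAAAGTCCA was likewise in 0 of 26 and in 0.475% of all. The CDX element TTTATNG was in the windows of Apob, Cideb, Fabp1 and Fabp2, 4 of 26 (15.4%, against 10.9%), and in none of the 4 called genes. A TATA box (TATAAA), which can overlap a CDX match, was in 3 of 26 (11.5%, against 13.6%). A CCAAT box, not set in capitals, was in 7 of 26 (26.9%, against 37.4%), Acsl5 among them. Each member was read from 1 window, that of its most upstream start, while the shares of all windows count every start of a gene. The 2 kinds of share are therefore not of like sets. All motifs were searched on both strands, and a match is a string of letters and not a measured binding site. The kappa-B and HNF4 strings were so rare over all windows that a match in 26 windows was unlikely from the start. Their counts of 0 therefore cannot show that the members lack kappa-B or HNF4 sites.

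Uptake genes gave the members' largest differences, and Slc27a4 was the 1 of 5 that passed the test. Slc27a4 encodes FATP4, a fatty acid transport protein and acyl-CoA synthetase of the small intestine. Its wild-type values were 11.54, 11.65, 11.45 and 11.65 in pairs 1 to 4, and its knockout values 10.97, 10.85, 11.06 and 10.78. Every knockout lay below every wild type. The difference of −0.66 ± 0.220 (n = 4 pairs, 95% interval −0.89 to −0.42, limma adjusted p = 0.0220) leaves 63.4% of the wild-type level, and the smallest difference was the −0.39 of pair 3. Intervals here and below are limma's for a gene taken alone and are not adjusted for the number of genes.

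Fabp2, the intestinal fatty acid binding protein, was lower in all 4 pairs without passing the test. Its values were 13.87, 13.99, 13.75 and 14.51 in wild types and 13.47, 13.38, 13.55 and 12.46 in knockouts. The mean difference of −0.82 ± 0.840 (adjusted p = 0.135) was carried mostly by pair 4, where it was −2.05, against −0.40, −0.61 and −0.20 in pairs 1 to 3. In pair 4 the enterocyte markers Lct, the lactase gene, and Mep1a, a meprin subunit, also had their largest differences, −4.82 and −2.79. They were named after their values were seen. The 11 enterocyte markers had medians of −0.45, −0.26, −0.15 and −0.45 in pairs 1 to 4. In pair 4, 8 of them were lower and 3 higher.

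Fabp1, the liver-type binding protein that the duodenum also makes, had no common direction. It was 9.78, 8.48, 10.50 and 10.75 in wild types and 9.70, 11.09, 10.11 and 9.89 in knockouts. The knockout was higher by 2.61 in pair 2, which is 6.11-fold, and lower by 0.08, 0.39 and 0.86 in pairs 1, 3 and 4. The mean of 0.32 ± 1.56 (adjusted p = 0.732, 95% interval −0.94 to 1.58) leaves a large change in either direction possible.

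Cd36, a fatty acid translocase of enterocytes, adipocytes, capillary endothelium and macrophages, changed sign between pairs. Wild types had 8.50, 8.30, 9.80 and 10.03 and knockouts 10.10, 10.16, 9.16 and 8.88. The knockout was higher by 1.60 and 1.86 in pairs 1 and 2 and lower by 0.64 and 1.15 in pairs 3 and 4, with an adjusted p = 0.641. Slc27a2, which encodes the very long chain acyl-CoA synthetase FATP2 of liver and kidney, was 8.84, 8.78, 9.68 and 10.03 in wild types and 8.80, 8.79, 8.38 and 7.98 in knockouts. It differed by −0.04 and 0.01 in pairs 1 and 2 and by −1.30 and −2.05 in pairs 3 and 4 (adjusted p = 0.175). In pairs 3 and 4 all 5 uptake genes were lower in the knockout, with medians of −0.39 and −1.15, against −0.08 and 0.01 in pairs 1 and 2.

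**Figure D2:**
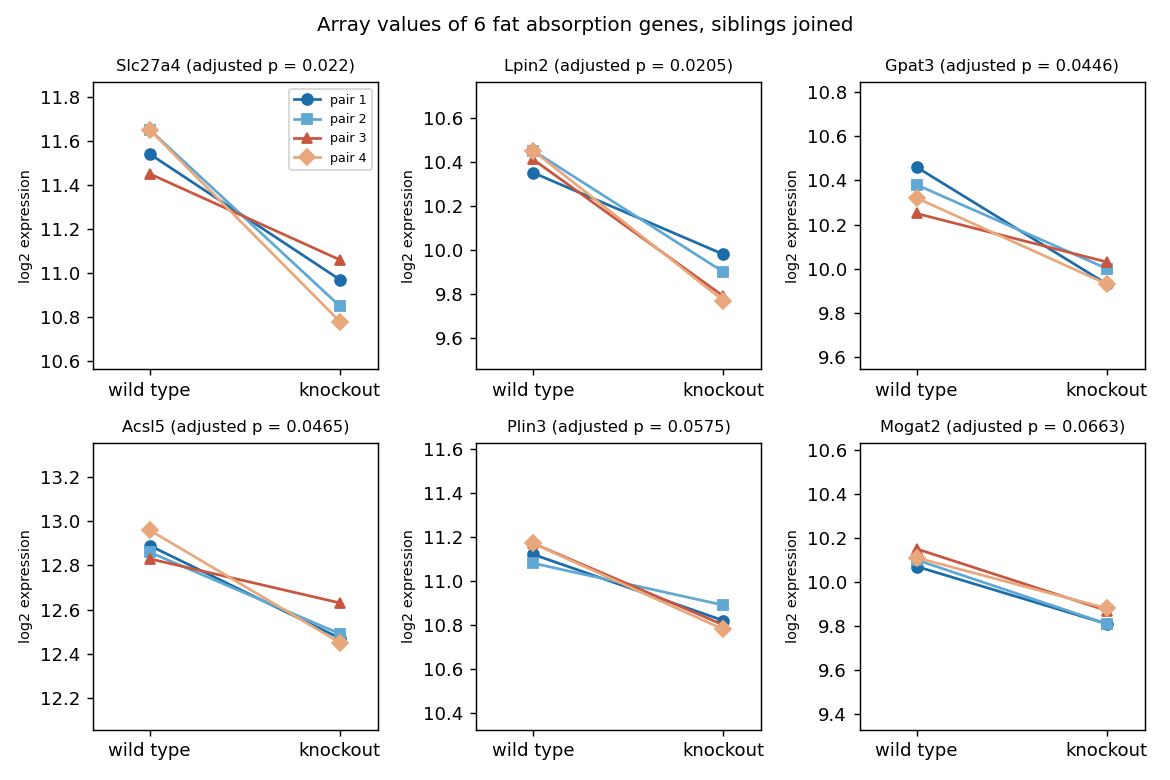
Each panel shows the log2 values of 1 gene on the 8 arrays, with siblings joined by a line and the same span of 1.3 log2 units on each vertical axis. In Slc27a4, Lpin2, Gpat3 and Acsl5 all lines slope down, as they do in Plin3 and Mogat2, whose adjusted p-values were 0.0575 and 0.0663.

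Re-esterification held the other 3 called genes among its 13 measured members, and 0 were called higher (0 at unadjusted limma p under 0.05). Lpin2 encodes a lipin, the phosphatidate phosphatase that makes diacylglycerol. It was 10.35, 10.45, 10.41 and 10.45 in wild types and 9.98, 9.90, 9.79 and 9.77 in knockouts. The groups were separate, with a difference of −0.56 ± 0.134 (n = 4 pairs, 95% interval −0.75 to −0.36, limma adjusted p = 0.0205), or 68.1% of wild type. The other lipins did not follow it: Lpin3 differed by −0.29, −0.24, −0.22 and 0.28 in pairs 1 to 4 (adjusted p = 0.532). Lpin1, prominent in fat and muscle, differed by 0.98, 0.87, 0.23 and −0.20 (adjusted p = 0.185). Whether the lipins differed from each other was not tested.

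Gpat3 encodes a glycerol-3-phosphate acyltransferase of the endoplasmic reticulum, which starts the glycerol phosphate route. It was 10.46, 10.38, 10.25 and 10.32 in wild types and 9.93, 10, 10.03 and 9.93 in knockouts. The difference was −0.38 ± 0.127 (n = 4 pairs, 95% interval −0.57 to −0.19, limma adjusted p = 0.0446), or 76.8% of wild type. Its relative Gpat4 was lower by 0.14, 0.11, 0.15 and 0.14 in pairs 1 to 4. The SD of those differences, 0.0173, was smaller than in all but 0.396% of probe sets, and the limma test on a moderated variance gave an adjusted p = 0.243. Of the acyltransferases of the next step, Agpat1 was higher in all 4 pairs (0.06, 0.26, 0.08 and 0.27, adjusted p = 0.211). Agpat2 averaged 0.00 with a 95% interval of −0.16 to 0.17. Agpat3 was higher by 0.26 and 0.46 in pairs 1 and 2 and lower by 0.33 and 0.53 in pairs 3 and 4.

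Acsl5 encodes a long-chain acyl-CoA synthetase that is abundant in enterocytes. It was 12.89, 12.86, 12.83 and 12.96 in wild types and 12.47, 12.49, 12.63 and 12.45 in knockouts. The groups did not overlap, and the difference of −0.38 ± 0.130 (n = 4 pairs, 95% interval −0.56 to −0.19, limma adjusted p = 0.0465) leaves 77.1% of wild type. Acsl4, which prefers arachidonate, differed by 0.41, 0.14, −0.14 and 0.12 (adjusted p = 0.433). In Slc27a4, Gpat3 and Acsl5 pair 3 had the smallest of the 4 differences, and Nfkbia too differed least there. Lpin2 had its smallest difference in pair 1, and no relation to the Nfkbia level was tested over 4 pairs.

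Mogat2, the monoacylglycerol acyltransferase of the gut, was 10.07, 10.10, 10.15 and 10.11 in wild types and 9.81, 9.81, 9.87 and 9.88 in knockouts. It was lower by 0.26, 0.29, 0.28 and 0.23 in pairs 1 to 4, with an SD of 0.0265 that only 0.883% of probe sets undercut. The mean of −0.27 missed the threshold (95% interval −0.42 to −0.11, adjusted p = 0.0663). Dgat1, which makes most of the triglyceride for export, was lower by 0.42, 0.36, 0.06 and 0.10 (adjusted p = 0.155). Dgat2, whose next protein-coding gene on chromosome 7 is Mogat2, was higher by 0.43 and 0.32 in pairs 1 and 2 and lower by 0.22 and 0.75 in pairs 3 and 4, so these neighbours differed in their pattern over the pairs (adjusted p = 0.883, 95% interval −0.52 to 0.41 for Dgat2).

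Droplet genes had 0 of 6 called, with 2 lower and 3 higher at unadjusted limma p under 0.05. Plin3, a perilipin that coats nascent droplets, was 11.12, 11.08, 11.17 and 11.17 in wild types and 10.82, 10.89, 10.80 and 10.78 in knockouts. Its difference of −0.31 ± 0.0903 had an adjusted p = 0.0575. Plin2, the coat of stored droplets, was 9.51, 9.47, 9.61 and 9.75 in wild types and 9.30, 9.29, 9.27 and 9.13 in knockouts (−0.34 ± 0.201, adjusted p = 0.0831). In both genes every knockout array lay below every wild-type array.

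Fitm2, which supports droplet budding from the endoplasmic reticulum, was higher by 0.12, 0.05, 0.41 and 0.55 in pairs 1 to 4 (adjusted p = 0.143). Cideb, which enlarges droplets and lipoprotein particles, was higher by 0.37, 0.33, 0.01 and 0.09 (adjusted p = 0.204). The triglyceride lipase gene Pnpla2 was higher by 0.35, 0.27, 0.02 and 0.22 (adjusted p = 0.152). The monoglyceride lipase gene Mgll was higher by 0.78, 0.63 and 0.10 in pairs 1 to 3 and equal in pair 4 (adjusted p = 0.157). Cideb, Pnpla2 and Mgll thus had their larger differences in pairs 1 and 2, and Fitm2 in pairs 3 and 4.

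Lipoprotein genes had 0 of 7 called, with 2 lower and 0 higher at unadjusted limma p under 0.05. Apob, the scaffold of the chylomicron, was 13.62, 13.64, 13.73 and 13.79 in wild types and 13.55, 13.53, 13.46 and 13.37 in knockouts. It was lower in all 4 pairs by small amounts (−0.22 ± 0.160, 95% interval −0.42 to −0.01, adjusted p = 0.162). Mttp, which loads lipid onto Apob, differed by −0.11, 0.12, −0.08 and −0.24 (adjusted p = 0.584). Its 95% interval of −0.28 to 0.12 leaves out the size of the mean Slc27a4 difference. The COPII GTPase genes Sar1a and Sar1b had means of 0.03 and −0.09, with intervals of −0.17 to 0.23 and −0.28 to 0.10.

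The apolipoprotein genes Apoa1, Apoc3 and Apoa4 follow each other on chromosome 9 as neighbouring protein-coding genes. Apoa1, the main protein of high density lipoprotein, was lower by 0.02, 0.13, 0.17 and 0.41 in pairs 1 to 4 (adjusted p = 0.226). Apoc3, an inhibitor of triglyceride clearance, was 11.78, 11.68, 12.26 and 12.39 in wild types and 11.64, 11.74, 11.53 and 11.39 in knockouts. It differed by −0.14, 0.06, −0.73 and −1.0 (adjusted p = 0.165). Apoa4, a chylomicron protein induced by fat feeding, differed by 0.20, 0.01, −0.29 and −0.70 (adjusted p = 0.433). All 3 were lowest in the knockout of pair 4 relative to its sibling, and the lipoprotein genes had medians of −0.07, 0.01, −0.17 and −0.41 in pairs 1 to 4.

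**Figure D3:**
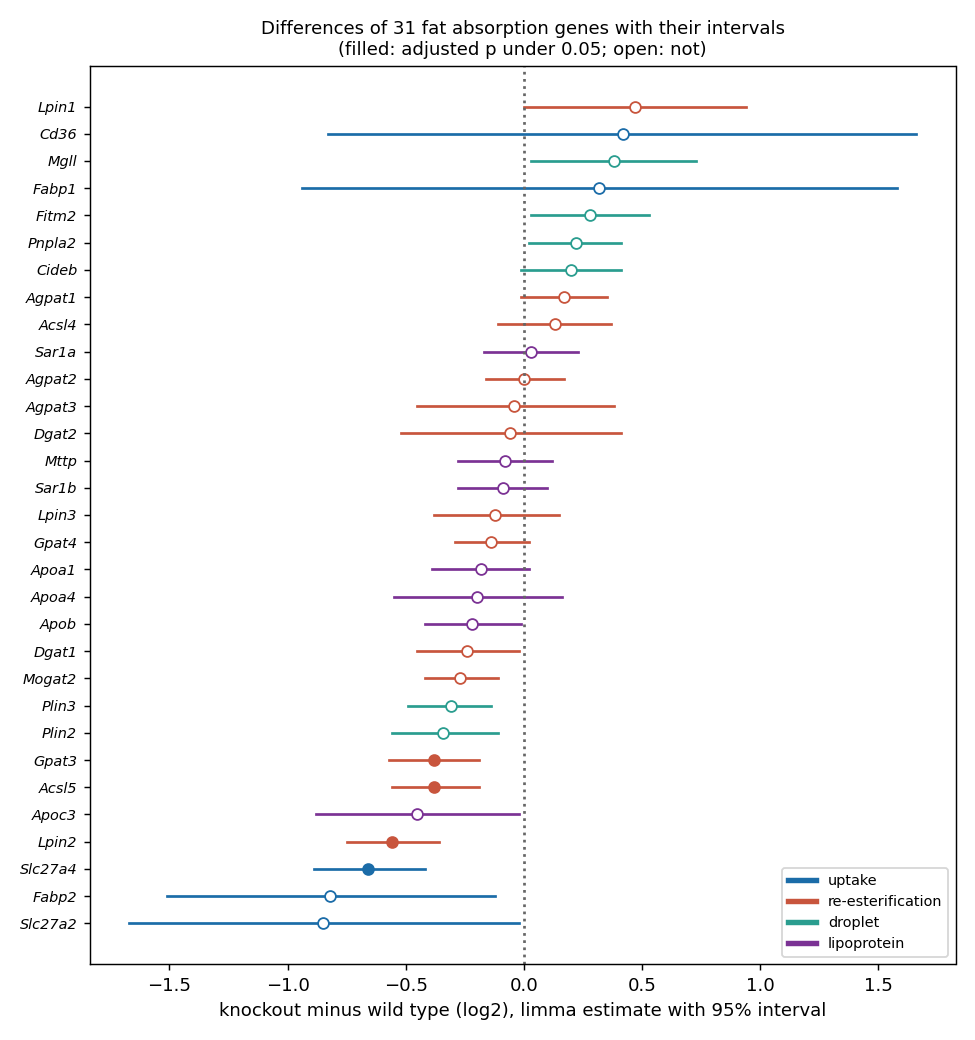
Points are limma estimates of the knockout minus wild-type difference (log2) for 31 genes, lines their 95% intervals and colours the 4 functional groups. The 4 filled points passed an adjusted p of 0.05, and the widest intervals are those of Cd36 (−0.83 to 1.66) and Fabp1 (−0.94 to 1.58).

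Several members are also genes of fat tissue, and adipocyte markers differed between siblings. Of 11 adipocyte markers measured 0 were called (6 higher and 0 lower at unadjusted limma p under 0.05), with median differences of 1.66, 1.30, 0.16 and −0.16 in pairs 1 to 4. Their summed log2 level was 10.94 to 11.85 in wild types and 11.38 to 13.01 in knockouts. Adiponectin (Adipoq), which defines adipocytes, differed by 5.10 and 4.84 in pairs 1 and 2 and by 0.85 and 0.21 in pairs 3 and 4. In the wild types of pairs 1 and 2 it was 4.60 and 4.78, and in their knockouts 9.70 and 9.62. Most differences between pairs were absent from the deposited values, so a low wild-type value can mirror a high knockout value. These levels therefore cannot show whether the wild types lacked adipocyte RNA.

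The 11 members shared with fat tissue were Cd36, Acsl4, Dgat1, Dgat2, Gpat3, Agpat2, Lpin1, Plin2, Fitm2, Pnpla2 and Mgll. Their medians were 0.35, 0.14, −0.06 and −0.10 in pairs 1 to 4. The 11 measured members of gut and liver (Slc27a2, Fabp1, Fabp2, Acsl5, Mogat2, Cideb, Mttp, Apob, Apoa1, Apoa4 and Apoc3) had medians of −0.08, 0.01, −0.27 and −0.51. Higher in pairs 1 and 2 and lower in pairs 3 and 4 were 5 of 31 members, Cd36, Dgat2, Agpat3, Apoa4 and Sar1a (16.1%, beside 6.13% of all probe sets). The part of adipocyte RNA in the differences of these members was not tested. Of 12 pancreatic acinar markers 1, Clps, was called lower and 0 higher (7 lower and 0 higher at unadjusted limma p under 0.05). The median differences of the 12 markers were −0.60, 0.07, −3.82 and −3.37 in pairs 1 to 4. Clps did not follow these medians, and its differences lay between −3.5 and −2.25 in all 4 pairs. The summed log2 level of the 12 markers was 12.37 to 14.16 in wild types and 10.73 to 12.10 in knockouts. Of 6 smooth muscle markers 0 were called (0 at unadjusted limma p under 0.05), with medians of 0.22, 0.02, −0.58 and −0.63. The part of these cells in the differences of pairs 3 and 4, such as those of Slc27a2 and Apoc3, was not tested.

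The 4 called genes were lower in each of the 4 pairs, so their averages in any set of pairs had to be negative. In pairs 1 and 2 alone Slc27a4 averaged −0.69 and in pairs 3 and 4 alone −0.63. Lpin2 averaged −0.46 and −0.65, Gpat3 −0.46 and −0.31, and Acsl5 −0.40 and −0.36. With 2 pairs limma called none of the 4, with adjusted p-values from 0.138 to 0.154 in pairs 1 and 2 and from 0.166 to 0.268 in pairs 3 and 4. Cd36 by contrast averaged 1.73 in pairs 1 and 2 alone and −0.90 in pairs 3 and 4 alone.

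**Figure D4:**
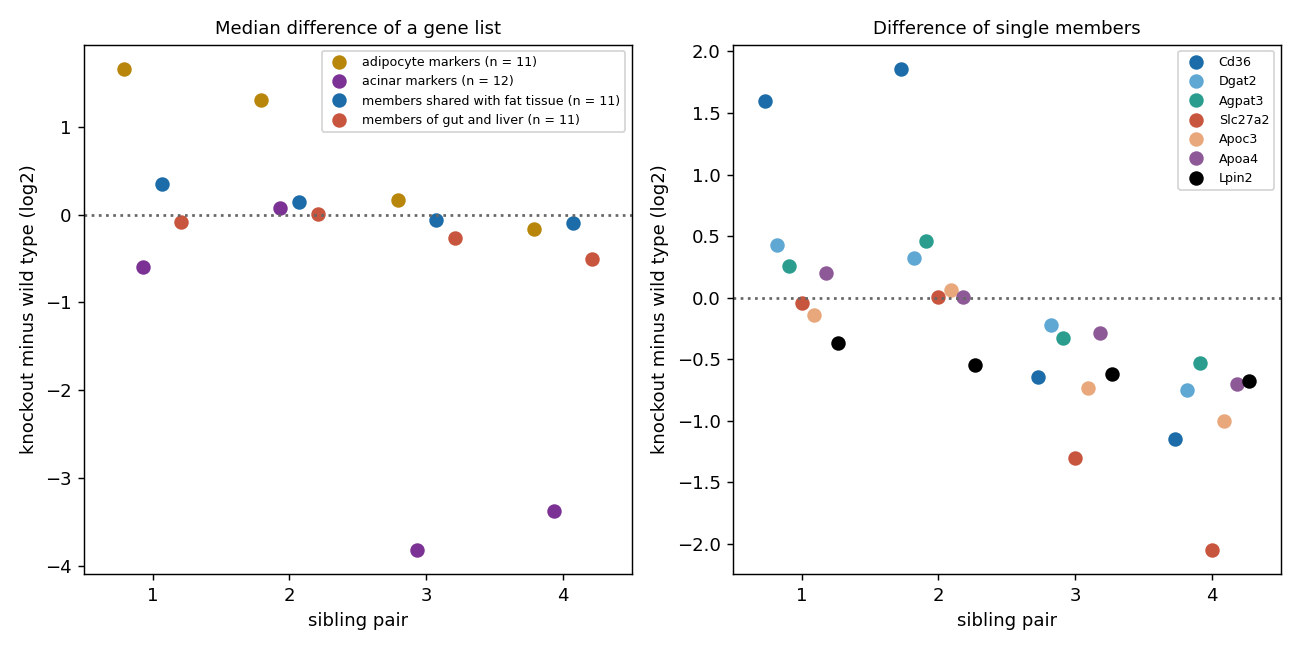
Left, the median knockout minus wild-type difference (log2) of 4 gene lists in each sibling pair; right, the differences of 7 members. Adipocyte markers stand at 1.66 and 1.30 in pairs 1 and 2, acinar markers at −3.82 and −3.37 in pairs 3 and 4, and Lpin2 stays between −0.37 and −0.68.

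Other genes of the route were read from a list of 37, of which 36 were measured. Of these 2 were called higher and 0 lower, beside 3.16% and 2.70% of all probe sets. At unadjusted limma p under 0.05, 8 were higher and 5 lower, and the median difference was 0.01. Plin1, Plin4, Cidea and Cidec were on the adipocyte list too, and Plin1 and Plin4 were among the 8 higher genes. Apobec1, the deaminase that edits Apob mRNA to the short form, rose by 0.82, 0.79, 0.50 and 0.48 in pairs 1 to 4 (0.65 ± 0.182, limma adjusted p = 0.0192), a 1.57-fold rise. Agpat5, another acyltransferase of the Agpat family, rose by 0.31, 0.53, 0.28 and 0.47 (0.40 ± 0.121, adjusted p = 0.0396). No call was made for Lpcat3, which shapes the phospholipids of the chylomicron, at −0.27, −0.20, −0.22 and −0.30 (adjusted p = 0.0794).

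Of 12 measured transcription factors and cofactors of intestinal lipid genes, 3 were called higher and 0 lower, beside 3.16% and 2.70% of all probe sets. At unadjusted limma p under 0.05, 5 were higher and 3 lower. Pparg, a nuclear receptor of fatty acids that is abundant in fat cells and also present in gut epithelium, rose by 1.09, 1.73, 0.42 and 0.84 (1.02 ± 0.548, adjusted p = 0.0375). Mlxipl, the carbohydrate response factor ChREBP, rose by 0.25, 0.47, 0.62 and 0.74 (0.52 ± 0.211, adjusted p = 0.0352). Plagl2, which is needed for chylomicron handling in newborn mice, rose by 0.49, 0.34, 0.64 and 0.98 (0.61 ± 0.274, adjusted p = 0.0349). Ppara, a nuclear receptor that drives fatty acid handling genes, was lower by 0.54, 0.54, 0.10 and 0.81 without passing the test (adjusted p = 0.0601). Creb3l3, a regulator of apolipoprotein genes, was lower by 0.31, 0.25, 0.40 and 0.64 (adjusted p = 0.0505). Hnf4g was lower by 0.43, 0.26, 0.30 and 0.13 (adjusted p = 0.0825), and Hnf4a higher by 0.13, 0.12, 0.43 and 0.51 (adjusted p = 0.108). Without pair 1, 2 or 4 limma called 0 genes of these 2 lists, and without pair 3 it called 2 higher and 1 lower. At unadjusted limma p under 0.05 the fits without pair 1, 2 or 4 had 11, 12 and 12 higher and 4, 7 and 6 lower. Of all probe sets 2361, 2120 and 2467 were higher and 2475, 2277 and 2682 lower in those fits.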

How the data were processed

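Total RNA of 8 mice was hybridized to Clariom S mouse arrays. The authors deposited 1 log2 expression value per probe set and array. The submitters' processing notes name RMA and Transcriptome Analysis Console 4.0, without settings. Groups and pairs were taken from the sample titles.

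All 22206 probe sets were fitted with lmFit and eBayes of limma 3.58.1 under R 4.3.3, with the sibling pair as a block and Benjamini-Hochberg adjustment at 0.05. With the block 3 residual degrees of freedom remain, and 6.63 after moderation, so the number of arrays limits the precision. The pairs are littermates by label. Over probe sets, the deviations of a knockout and of its sibling correlated at −0.913 to −0.870, because most differences between pairs were absent from the deposited values. The median SD of the 4 pair means was 0.0175, against 0.179 for the within-pair differences. No source used here records that step. Gene symbols came from the platform annotation, with 19572 probe sets named and 2634 unnamed here. All 31 measured members were found by gene ID in the RefSeq table of GRCm38.p6. A gene with several probe sets was read from the one with the highest mean. No filter on low values was applied.

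The members and gene lists were chosen with earlier results of these data known. All members are named, with Nfkbia and, of the other route and regulator lists, every called gene. Hnf4a, Hnf4g, Lpcat3, Ppara, Creb3l3, Lct and Mep1a were named after their values were seen. The fit was tested on simulated data. The alternatives dropped the block, dropped 1 or 2 pairs, added sex or RNA integrity, left out dim probe sets, applied quantile normalization, centred arrays on housekeeping or on pan-epithelial genes, or used trend and robust variance, and thresholds of 0.01 and 0.10.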

Additional observations from a re-analysis of the deposited data

Results flagged for a closer look

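In 62 groups of 4 arrays, 31 genes in knockouts and in wild types, 3 had an array far from the other 3 by Dixon's test at the 95% level. Chance flags about 1 in 20 groups. Where pair means are close, the knockout and wild-type groups of a gene mirror each other, so the groups are not independent. The Fabp2 value of the pair 4 knockout was 12.46, against 13.38, 13.47 and 13.55 in the other knockouts. The Agpat2 value of the pair 2 knockout was 12.26, against 12.20, 12.20 and 12.21. The Lpin3 value of the pair 4 wild type was 7.92, against 8.18, 8.18 and 8.19. In pair 4 Lpin3 was also the 1 time that its knockout was the higher sibling, by 0.28.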

How the results depend on the processing

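Pairing is by label, and the fit without the replicate block moved the members called to 11 lower and 5 higher, the other route genes and regulators to 9 lower and 13 higher, and all probe sets to 4026 lower and 3622 higher. The p-values of that fit are too small for most probe sets, because most differences between pairs were absent from the deposited values. Leaving out 1 pair gave 0 to 1 members called lower, 0 to 2 other genes higher and 0 to 1 lower, and 56 to 240 probe sets lower and 89 to 219 higher. Pairs 3 and 4 alone gave 0 members, 0 other genes, 25 probe sets lower and 1 higher, and pairs 1 and 2 alone gave 0 of each. With sex added 1 member was lower, 1 other gene higher and 1 lower, and 233 probe sets lower and 231 higher. With RNA integrity added 1 member was lower, 0 other genes higher, and 152 probe sets lower and 212 higher. Leaving out dim probe sets gave 5 members, 1 other gene and 554 probe sets lower. Quantile normalization gave 5 members, 2 other genes and 581 probe sets lower. Centring on housekeeping genes gave 14 members and 12 other genes lower and 5275 probe sets lower, with 8.58% of calls higher against 54% in the reported fit and a median of all probe sets of −0.186. Centring on pan-epithelial genes gave 6 members, 3 other genes and 1366 probe sets lower, with 29.3% of calls higher and a median of −0.081. Trend and robust variance gave 7 members and 4 other genes lower, and 1135 probe sets higher. At a threshold of 0.01 there were 0 members, 0 other genes, 33 probe sets lower and 64 higher, and at 0.10 there were 7 members lower, 9 other genes higher and 4 lower, and 1631 probe sets lower and 1673 higher. The 4 called members were lower in all 14 refits, with adjusted p from 4.17e-04 to 0.218 for Slc27a4, 2.74e-04 to 0.166 for Lpin2, 0.0012 to 0.256 for Gpat3 and 0.00115 to 0.268 for Acsl5. The fits on fewer pairs could not reverse their sign, because these genes were lower in each of the 4 pairs. The sign turned for 10 members, none of them called. With 1 pair left out it did so for Sar1a (−0.03 without pair 1, up to 0.09), Cd36 (−0.06 without pair 2, up to 0.94), Fabp1 (−0.44 without pair 2, up to 0.71), Agpat2 (−0.03 without pair 2, up to 0.02), Agpat3 (0.06 without pair 3 and 0.13 without pair 4, down to −0.20) and Dgat2 (0.18 without pair 4, down to −0.22). In pairs 3 and 4 alone it did so for Cd36 (−0.90), Fabp1 (−0.63), Acsl4 (−0.01), Agpat2 (−0.04), Lpin3 (0.03) and Sar1a (−0.09), and in pairs 1 and 2 alone for Dgat2 (0.38), Mttp (0.01), Apoa4 (0.11) and Agpat3 (0.36). Quantile normalization turned Agpat2 (−0.02) and Sar1a (−0.01), housekeeping centring Acsl4 (−0.04), Agpat2 (−0.17) and Sar1a (−0.14), and pan-epithelial centring Agpat2 (−0.06) and Sar1a (−0.04). Apart from the fit without the block, the cause of these changes was not tested. All 31 members lay above the background level on every array, and what limited the calls was not tested.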

Other observations

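The genes whose 4 within-pair differences lay nearest to those of a member were read off after the values were seen, by Euclidean distance over 19504 genes, and are given as values with no test. Nearest to Fabp1, which was higher by 2.61 in the pair 2 knockout, were Adh4, Slc46a1, Tmprss15, Anxa10 and Slc2a2, at distances from 1.07 to 1.31. Tmprss15 encodes enteropeptidase, the duodenal enzyme that activates trypsinogen, and its differences were 0.09, 2.98, −0.45 and 0.25 in pairs 1 to 4. Slc46a1, the proton-coupled folate transporter of the proximal small intestine, differed by −0.20, 1.77, −0.64 and −0.19. Slc2a2, the basolateral glucose transporter GLUT2, differed by −0.84, 1.94, 0.02 and −0.13. The search picks genes that share the pattern of Fabp1, so their high values in pair 2 follow from the choice.

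Nearest to Fabp2, with its difference of −2.05 in pair 4, were Podn, Naaladl1, Aldh1a1, Slc13a2 and Osr2, at distances from 0.33 to 0.59. Aldh1a1, a retinal dehydrogenase, differed by −0.37, −0.54, 0.02 and −1.64, and Slc13a2, a dicarboxylate transporter, by −0.59, −0.90, −0.06 and −2.49. Nearest to Cd36 were Fcgrt, Retnla, Cidec, Sectm1a and Anxa10, at distances from 0.72 to 1.11. Cidec, a droplet protein of fat cells that was also on the adipocyte list, differed by 1.31, 1.17, −0.48 and −0.72. Nearest to Slc27a2 were Klk1, Arsg, Apol9a, Sptssb and Klk1b5, at distances from 0.31 to 0.44, and Klk1, a kallikrein that the pancreas also makes, differed by 0.25, 0.11, −1.27 and −2.11.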
